A study of Mus musculus with 16 samples.

Results

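This account covers 10 genes that encode the fixed parts of the T cell antigen receptor and its coreceptors, in cultured CD8+ T cells of the mouse with and without pyruvate dehydrogenase. They are the CD3 chains Cd3d, Cd3e and Cd3g, the zeta chain Cd247, the coreceptors Cd4, Cd8a and Cd8b1, and the receptor constant genes Trac, Trbc1 and Trbc2. The genes were taken by name from the 55401 genes in the deposited tables, and all 10 were present and passed the low count filter, with Cd4 close to its limit. Poly(A) RNA was measured in 16 libraries of OT-I cells, whose transgenic receptor recognises an ovalbumin peptide. Per the study's methods, cells activated with that peptide were grown with IL-2 to give effector cells (TE) or with IL-15 to give memory cells (TM). Cells were from wild-type mice (WT, genotype wildtype in the labels) or from mice with a floxed Pdha1 and Cre driven by Cd4 regulatory sequences (TPdh−/−, genotype PDH_Mutant), adults of both sexes. Pdha1 encodes a catalytic subunit of that enzyme, which turns pyruvate into acetyl-CoA. Each group had 4 libraries, numbered 1 to 4 for WT and 5 to 8 for TPdh−/− effector cells, and 9 to 12 for WT and 13 to 16 for TPdh−/− memory cells. For its RNA-seq of TM cells the paper gives more mice per condition than there are libraries per group here. The labels did not tie libraries to animals, so p values measure the spread between libraries, which may be technical.

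On a T cell the alpha and beta chains, each a variable segment joined to a constant region, bind peptide on MHC but have almost no cytoplasmic part. Signals are carried by CD3 delta, epsilon and gamma and by the zeta homodimer, whose tails hold ITAMs, pairs of tyrosines that the kinase Lck phosphorylates so that ZAP-70 can dock. The coreceptors bind MHC and bring Lck along: CD8, made of alpha and beta chains or of alpha chains alone, binds class I, and CD4 binds class II. In the thymus a cell passes through a stage with both coreceptors and then silences one of them, and CD8 cells keep Cd4 silent.

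The tyrosine codons that distinguish the signalling chains are shown here because the ratio of zeta to the other chains is compared below. Coding DNA is from GENCODE M21 on GRCm38, 5′ to 3′, with the ITAM tyrosine codons in capitals. A search of the translated coding sequence for such paired tyrosines found 1 ITAM in each of Cd3d (chr9, plus strand), Cd3e and Cd3g (chr9, minus strand), and 3 in Cd247 (chr1, plus strand), and each stretch spans an intron.
Cd3d (chr9:44986095-44986311): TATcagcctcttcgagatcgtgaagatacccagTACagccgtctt
Cd3e (chr9:44999549-45000440): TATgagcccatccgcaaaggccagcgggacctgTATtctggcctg
Cd3g (chr9:44970735-44971268): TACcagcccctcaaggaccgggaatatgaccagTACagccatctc
Cd247 ITAM 1 (chr1:165856451-165857454): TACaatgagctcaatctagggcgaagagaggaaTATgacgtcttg
Cd247 ITAM 2 (chr1:165858473-165859260): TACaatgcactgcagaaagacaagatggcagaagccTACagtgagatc
Cd247 ITAM 3 (chr1:165859819-165861042): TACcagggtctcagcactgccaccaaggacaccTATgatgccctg

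The coreceptor chains differ in how they hold Lck. Cd8a and Cd4 each held 1 cysteine codon pair of the kind that clasps Lck through zinc (capitals), and none of that form was found in the 213 codons of Cd8b1, so the balance of Cd8a and Cd8b1 messages concerns chains with and without this motif.
Cd8a (chr6, plus strand, chr6:71375896-71376866): aagcgtgttTGCaaaTGTcccaggccgcta
Cd4 (chr6, minus strand, chr6:124866269-124866626): aagaagaccTGCcagTGCccccaccggatg

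Trbc1 and Trbc2 are neighbouring copies on chromosome 6, 6849 bases apart, and how far their reads can be told apart bears on every value of theirs. Over 518 coding positions they were 95.6% identical, with 23 differences. In the first coding exon of 375 bases they differed once, C260A, counted from 1 at the first coding base and written with the Trbc1 base first.
Trbc1 (plus strand, chr6:41538462-41538491): ctggcacaatcctcgCaaccacttccgctg
Trbc2 (plus strand, chr6:41546974-41547003): ctggcacaatcctcgAaaccacttccgctg

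The other 22 differences fell in the 143 bases of the later coding exons, shown with the differing bases in capitals. Of the 369 windows of 150 bases, the read length, along the Trbc1 coding sequence, 110 (29.8%) occurred unchanged in Trbc2, and RSEM can assign single reads from these only by its estimate of the proportions. No such window of the transcript with the longest coding sequence of Cd3d, Cd3e, Cd3g, Cd4, Cd8a, Cd8b1 or Trac occurred in another gene. The zeta transcript of Cd247 shared 49 of 1483 windows with the overlapping gene Gm16565, and exons of Cd247 also overlap Pou2f1, as Cd3e overlaps Gm48719, on the opposite strand. The library kit keeps no strand.
Trbc1 (plus strand, chr6:41539114-41539662): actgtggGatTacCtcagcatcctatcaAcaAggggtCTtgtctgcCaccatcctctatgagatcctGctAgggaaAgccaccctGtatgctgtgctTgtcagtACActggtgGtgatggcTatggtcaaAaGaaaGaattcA
Trbc2 (plus strand, chr6:41547610-41548178): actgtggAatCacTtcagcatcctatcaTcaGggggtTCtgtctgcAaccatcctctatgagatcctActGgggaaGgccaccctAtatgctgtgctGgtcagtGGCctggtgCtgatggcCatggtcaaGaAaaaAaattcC

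Values below are CPM, counts divided by library depth and scaled by edgeR's TMM factors, and differences are on the log2 scale with a standard error (SE) from the spread between libraries. Adjusted p values are from edgeR's quasi-likelihood test with Benjamini-Hochberg adjustment over 15277 genes, and a gene was called below 0.05. Library totals ran from 53007257 to 73507566 counts, of which the 10 genes held 0.309% to 0.534%. Pdha1, the targeted gene, had 161 ± 0.787 CPM (SD, n = 4) in WT TE and 153 ± 4.21 in TPdh−/− TE (adjusted p = 0.285), and 178 ± 11.6 in WT TM and 153 ± 8.51 in TPdh−/− TM (adjusted p = 0.00556). Cre removes only the floxed part of the gene and these counts sum over all exons, so they do not check the labels. Over all tested genes, WT TM library 12 and TPdh−/− TE library 5 lay farthest from the mean of the rest of their groups, with a root mean square difference of log2 CPM of 0.420 and 0.408 beside 0.302 to 0.399 for the other 14 libraries. WT libraries 1 and 9 stood apart in receptor genes, as described with Trbc2.

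Against WT, 8 of the 10 genes changed in TPdh−/− TE cells, 7 lower and Cd4 higher, while 31.6% of all tested genes were called (14.3% lower and 17.3% higher). The ranges of the libraries did not overlap for 7 members in TE, against 33.1% of all genes, nor for 5 in TM, against 20.8%. In TM cells 6 of the 10 changed, 5 lower and Cd4 higher, against 18.3% of all genes (7.27% lower and 11.0% higher). The median log2 difference of the 10 was -0.34 in TE and -0.19 in TM, beside medians of -0.00025 and -0.0048 over all tested genes. Between the cultures, 6 of the 10 changed in WT cells (3 higher and 3 lower in TM), close to the 68.6% of all genes called there (34.3% higher and 34.3% lower), and the ranges of those 6 did not overlap, against 63.9% of all genes. In TPdh−/− cells 8 changed (6 higher and 2 lower in TM) against 67.7% of all genes (33.0% higher and 34.7% lower), and 6 had ranges that did not overlap, against 59.8%. The genotype effect itself differed between the cultures for 3 of the 10, Cd3d and Cd3g with a positive and Cd8a with a negative interaction, against 15.6% of all genes (8.05% positive and 7.51% negative).

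**Figure D1:**
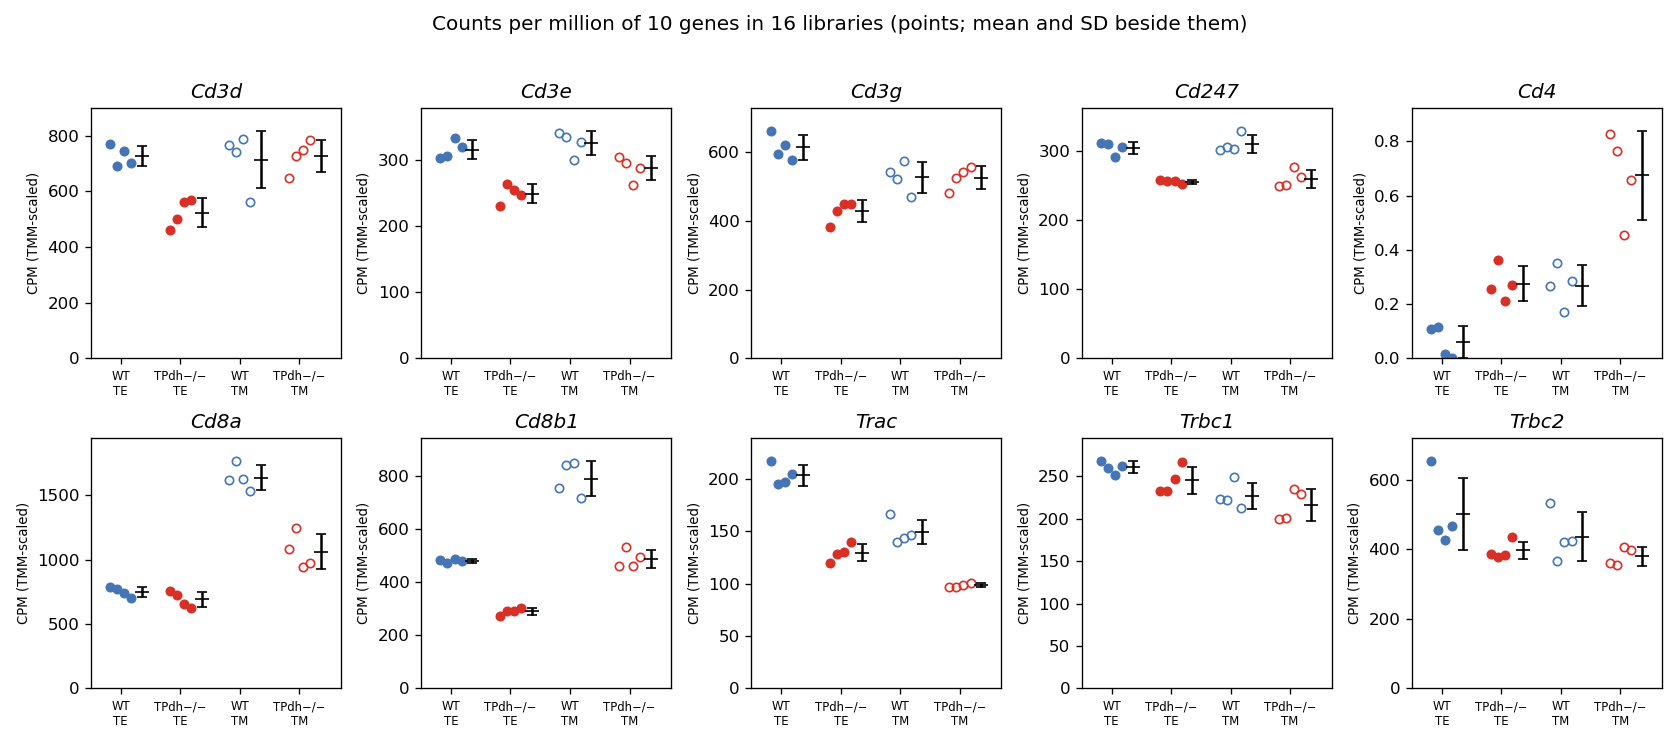
Level of each of the 10 genes (CPM, linear axis from 0) in every library, filled points for TE and open points for TM, blue for WT and red for TPdh−/−, with the mean and SD of the 4 libraries beside them. Cd8b1 and Trac were lower in all 4 TPdh−/− libraries than in all 4 WT libraries of the same culture, and Cd4 stayed below 1 CPM in all 16 libraries.

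Cd8b1, the beta chain of CD8, was lower in TPdh−/− cells of both cultures. In WT TE libraries it was 484, 472, 487 and 482 CPM, and in TPdh−/− TE libraries 273, 291, 294 and 304 CPM. In WT TM libraries it was 754, 844, 851 and 718 CPM, and in TPdh−/− TM libraries 463, 535, 462 and 497 CPM. No TPdh−/− library reached the lowest WT library of its culture. The log2 difference was -0.73 (SE 0.033, adjusted p = 2.29e-07) in TE and -0.69 (SE 0.079, adjusted p = 6.23e-07) in TM, that is 0.603-fold and 0.618-fold. The effects of genotype in TM and TE differed by 0.03 (SE 0.085, adjusted p = 0.842). In bulk RNA fewer cells with a message and less message per cell cannot be told apart.

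Cd8a, the alpha chain, did not follow in TE. It was 788, 768, 738 and 702 CPM in WT TE and 757, 725, 656 and 627 CPM in TPdh−/− TE, ranges that overlap, with a log2 difference of -0.12 (SE 0.073, adjusted p = 0.305). In TM it was 1617, 1765, 1629 and 1532 CPM in WT and 1082, 1245, 946 and 973 CPM in TPdh−/−. All 4 TPdh−/− TM libraries lay below the WT ones and above the WT TE ones. The TM difference was -0.62 (SE 0.099, adjusted p = 3.77e-05), and it exceeded that in TE by the interaction test (-0.51, SE 0.12, adjusted p = 0.00624). Both chains were higher in TM than in TE in either genotype, by 1.13 for Cd8a and 0.72 for Cd8b1 in WT (SE 0.056 and 0.061) and by 0.62 and 0.75 in TPdh−/− (SE 0.11 and 0.059). The genes lie in a row on chromosome 6, with 35933 bases from the end of Cd8b1 to the start of Cd8a.

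The balance of the CD8 chains was compared per length, as the ratio of TPM of Cd8b1 to Cd8a within a library. The ratio was 1.297, 1.303, 1.40 and 1.46 in WT TE and 0.777, 0.854, 0.956 and 1.03 in TPdh−/− TE. It was 0.970, 0.989, 1.08 and 0.962 in WT TM and 0.892, 0.906, 1.03 and 1.08 in TPdh−/− TM. WT TE cells thus held more Cd8b1 than Cd8a message per length in every library, and the other groups lay near or below equality. The log2 ratio differed by -0.60 (SE 0.098) between genotypes in TE and by -0.45 (SE 0.057) between cultures in WT. Each gave p = 0.0286 by a two-sided exact permutation test, the smallest that 4 against 4 libraries allow, and 0.0571 after adjustment over the 20 ratio comparisons made. In TM the genotypes differed by -0.04 (SE 0.079, exact permutation p = 0.657), and TPdh−/− cultures by 0.12 (SE 0.11, exact permutation p = 0.371).

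**Figure D2:**
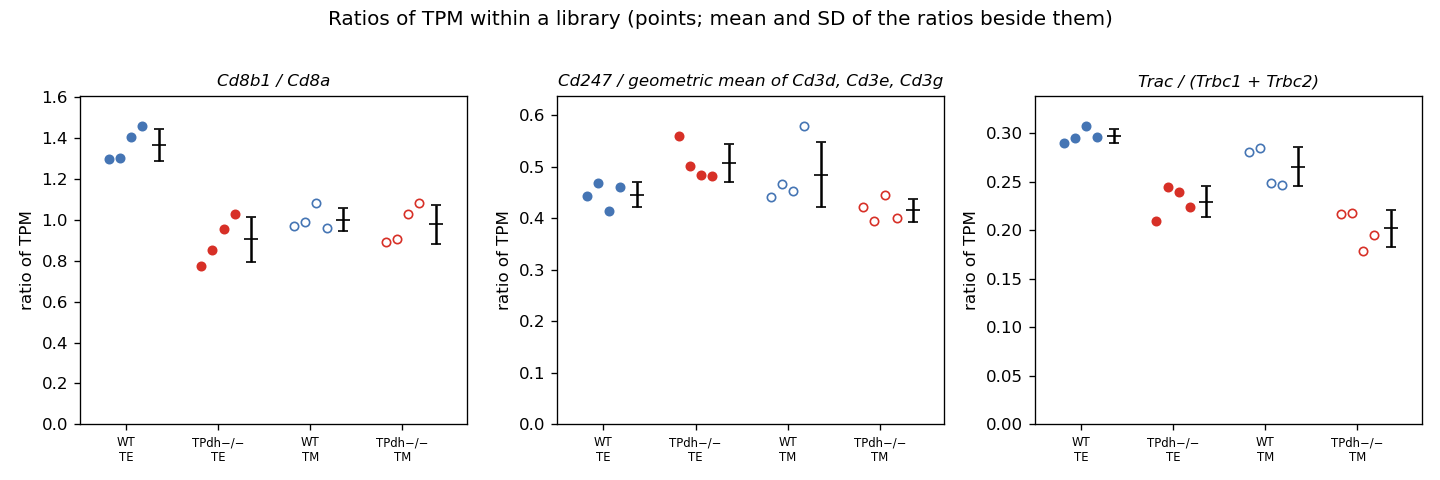
Ratios of TPM (linear axes from 0) within each library for Cd8b1 over Cd8a, Cd247 over the geometric mean of the CD3 chains, and Trac over the sum of Trbc1 and Trbc2, with the mean and SD of 4 libraries beside the points. The WT TE libraries, at 1.297 to 1.46, lie above all others in the first panel, and the TPdh−/− libraries lie below the WT libraries of the same culture in the third.

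The 250 bases before the start of Cd8a on GRCm38.p6 (RefSeq, plus strand, chr6:71373177-71373426) are shown with GGAA and its reverse complement, the core of ETS family sites, in capitals, because Cd8a was the member whose genotype difference was larger in TM.
Cd8a: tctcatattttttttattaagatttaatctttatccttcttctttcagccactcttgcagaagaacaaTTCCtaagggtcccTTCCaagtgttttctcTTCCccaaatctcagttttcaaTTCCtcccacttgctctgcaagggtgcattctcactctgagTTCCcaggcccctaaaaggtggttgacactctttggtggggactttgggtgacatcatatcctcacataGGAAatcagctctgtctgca

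GGAA, read on both strands, occurred 6 times here, beside a median of 3 over 32851 promoters of that length, of which 93.4% held at least 1. The RUNX hexamer TGTGGT, found in 4614 of them on either strand, did not occur, nor did TATAAA (12.4%), and the E-box CANNTG (66.2%) occurred 2 times. Such matches describe letters only, and the windows hold neither the enhancers nor the silencers of these genes. The RefSeq table held promoters of 5 of the 10 genes.

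Cd4 was barely present in these CD8 cells and was higher in TPdh−/− than in WT cells. The expected counts were 7, 7, 1 and 0 in WT TE and 15, 27, 15 and 15 in TPdh−/− TE. They were 17, 19, 10 and 17 in WT TM and 48, 43, 30 and 37 in TPdh−/− TM. In counts and in CPM no library overlapped the other genotype of its culture. In CPM the means were 0.0597 ± 0.0601 and 0.275 ± 0.0640 (SD, n = 4) in WT and TPdh−/− TE, and 0.268 ± 0.0745 and 0.675 ± 0.164 in TM. The log2 difference was 2.15 (SE 0.57, adjusted p = 0.00369) in TE and 1.33 (SE 0.26, adjusted p = 0.0219) in TM. The TM call was lost without library 9, 11, 13 or 14 (adjusted p 0.0539 to 0.0660), with log2 differences of 1.17 to 1.32. It was also higher in TM than in TE, by 2.10 in WT (SE 0.58, adjusted p = 0.00147) and 1.28 in TPdh−/− (SE 0.23, adjusted p = 0.00615), and the latter did not pass with limma on log2(TPM + 1) (0.12, adjusted p = 0.0985). A count of 0 allows up to 3 counts, which is 0.0408 to 0.0566 CPM at these depths. Per length, Cd4 never passed 0.50 TPM, while Cd8a was at least 289 TPM. Mean Cd4 was 0.255 TPM in TPdh−/− TE and 0.365 TPM in TPdh−/− TM. In TPM the genotypes overlapped in TM, at 0.11 to 0.21 in WT and 0.18 to 0.50 in TPdh−/−. The effective length that RSEM gave Cd4 varied, from 1023 to 2803 bases in WT TE and 966 to 1683 in TPdh−/− TE. In TM it ran from 1604 to 2727 in WT and from 1450 to 2800 in TPdh−/−. CPM takes no account of it.

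Markers of other cells that could carry Cd4 were read in the same libraries. Of 10 genes of CD4 helper and regulatory T cells 7 were tested, of which 2 rose and 1 fell in TPdh−/− TE and 3 rose in TM. For these and the lists below, 17.3% of all tested genes rose and 14.3% fell in TE, and 11.0% rose and 7.27% fell in TM. Foxp3, the regulatory T cell factor, was 0.703 to 1.28 CPM in WT TE and 4.14 to 21.4 CPM in TPdh−/− TE (adjusted p = 4.56e-06), while Ctla4, an inhibitory receptor of regulatory and of activated T cells, fell from 405 to 497 CPM in WT TE to 191 to 287 CPM in TPdh−/− TE (adjusted p = 4.45e-06). In TM Zbtb7b, the factor of the CD4 lineage, was 3.20 to 6.89 in WT TM and 6.86 to 13.7 in TPdh−/− TM (adjusted p = 0.0252). Cxcr5, a chemokine receptor of follicular helper cells, rose by 0.58 in TM on the log2 scale (adjusted p = 0.0315). Il17a was listed at 0 in all 16 libraries, Il4 in all 8 TM libraries. The summed TPM of the list, most of it Ctla4, was lower in TPdh−/− TE (153 to 236, Ctla4 134 to 205) than in WT TE (281 to 338, Ctla4 266 to 319) and overlapped in TM (96.8 to 115 and 89.4 to 121). The macrophage list, cells that in mice can hold some Cd4 message, summed to 13.7 to 22.1 TPM in TPdh−/− TE and 8.29 to 10.7 in WT TE, and to 22.2 to 37.4 and 5.09 to 6.45 in TM. Of its 9 genes 6 were tested, and 4 rose in TPdh−/− TE and 5 in TM. Dendritic cell markers summed to 1.91 to 4.57 TPM in TPdh−/− TE and 5.20 to 6.57 in WT TE, and to 7.57 to 15.1 and 1.01 to 1.72 in TM, with Cd209a at 0 throughout. Of 7 such genes 3 were tested, with 1 higher and 1 lower in TPdh−/− TE and 3 higher in TM. The part of these cells in the Cd4 values was not tested. The Cre transgene of TPdh−/− mice carries Cd4 regulatory sequences, and its part in the Cd4 counts was not tested either.

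Cd3g and Cd3d, the gamma and delta chains, fell in TPdh−/− TE cells and not in TM cells. Cd3g was 663, 595, 623 and 579 CPM in WT TE and 382, 430.3, 451 and 451 CPM in TPdh−/− TE, with no overlap. In TM it was 542, 524, 575 and 469 CPM in WT and 482, 526, 542 and 559 CPM in TPdh−/−. The TM libraries of both genotypes filled the same range. The log2 difference of Cd3g was -0.52 (SE 0.071, adjusted p = 3.22e-05) in TE and -0.0017 (SE 0.077, adjusted p = 0.995) in TM, and these effects differed by 0.52 (SE 0.10, adjusted p = 0.00199).

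Cd3d was 769, 690.4, 744 and 702 CPM in WT TE and 461, 501, 562 and 570.2 CPM in TPdh−/− TE. In TM it was 768, 740.3, 787 and 562 CPM in WT and 649.8, 728, 748 and 786 CPM in TPdh−/−. WT TM library 12 was the low one at 562 CPM. The difference in TE was -0.47 (SE 0.081, adjusted p = 0.00110), in TM it was 0.03 (SE 0.13, adjusted p = 0.883; -0.070 without library 12, adjusted p = 0.598), and the effects differed by 0.50 (SE 0.15, adjusted p = 0.0169). The interaction of Cd3d ranged from 0.34 to 0.56, that of Cd3g from 0.42 to 0.58 and that of Cd8a from -0.58 to -0.44 with libraries left out, and all 3 remained called in every alternative run.

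Cd3d and Cd3g are read outward from starts 1355 bases apart on chromosome 9, and Cd3e lies beyond the end of Cd3d. The bases before the starts of Cd3g (minus strand, chr9:44980432-44980681) and Cd3d (plus strand, chr9:44981536-44981785) are shown for the pair of genes that moved alike, with GGAA and its reverse complement in capitals.
Cd3g: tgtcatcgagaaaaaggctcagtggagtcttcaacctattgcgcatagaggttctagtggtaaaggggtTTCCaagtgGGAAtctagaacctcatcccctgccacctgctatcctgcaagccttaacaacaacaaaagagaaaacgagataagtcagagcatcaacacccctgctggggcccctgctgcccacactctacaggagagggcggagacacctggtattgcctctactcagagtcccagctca
Cd3d: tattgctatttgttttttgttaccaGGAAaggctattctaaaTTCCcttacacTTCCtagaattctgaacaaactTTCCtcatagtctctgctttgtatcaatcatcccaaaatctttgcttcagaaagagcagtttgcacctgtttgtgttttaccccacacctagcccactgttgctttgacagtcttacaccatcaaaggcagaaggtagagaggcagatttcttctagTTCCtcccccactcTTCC

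GGAA occurred 2 times before Cd3g and 6 times before Cd3d, on either strand, and CANNTG 3 times and 1 time. TGTGGT and TATAAA occurred in neither, nor before Cd3e or Cd247.

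Cd3e, the epsilon chain that pairs with both gamma and delta, was lower in TPdh−/− cells of both cultures, though its TM call was not stable. It ran from 303 to 334 CPM in WT TE and from 229.9 to 263 CPM in TPdh−/− TE (log2 difference -0.34, SE 0.053, adjusted p = 0.000301). In TM it ran from 299.8 to 341 CPM in WT and from 262 to 305 CPM in TPdh−/−, which overlap (-0.18, SE 0.062, adjusted p = 0.0400). The TM call was lost without any of libraries 9, 10, 12, 14, 15 or 16 (adjusted p 0.0649 to 0.137), and with limma on log2(TPM + 1) the TE value was -0.19 (adjusted p = 0.0787). The interaction was 0.16 (SE 0.081, adjusted p = 0.214).

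Cd247, the zeta chain, was lower in TPdh−/− cells by nearly the same amount in each culture. It was 311, 309.5, 291 and 305 CPM in WT TE and 258, 256, 256 and 251 CPM in TPdh−/− TE. It was 301, 305, 302 and 329 CPM in WT TM and 249, 249.8, 276 and 262 CPM in TPdh−/− TM. Neither culture had an overlap between genotypes. The log2 difference was -0.25 in both (TE SE 0.023, adjusted p = 0.000502 and TM SE 0.046, adjusted p = 0.00084). With limma on log2(TPM + 1) the TE value was -0.12 (adjusted p = 0.169). Between cultures it differed by 0.02 in either genotype (SE 0.037 in WT and 0.036 in TPdh−/−, adjusted p = 0.648 and 0.677).

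In WT cells the other chains moved little between cultures: Cd3g differed by -0.22 in TM against TE (SE 0.075, adjusted p = 0.0110; -0.081 and adjusted p = 0.229 with limma on log2(TPM + 1)), while Cd3d (-0.02, SE 0.12) and Cd3e (0.05, SE 0.052) did not pass the test. In TPdh−/− cells all 3 rose in TM, Cd3d by 0.48 (SE 0.093), Cd3g by 0.30 (SE 0.073) and Cd3e by 0.21 (SE 0.062). Per length, Cd247 stood at 0.446 of the geometric mean of the CD3 chains in WT TE, 0.506 in TPdh−/− TE, 0.482 in WT TM and 0.415 in TPdh−/− TM. Its log2 ratio rose by 0.18 (SE 0.065) in TPdh−/− TE against WT and was -0.29 (SE 0.064) in TPdh−/− TM against TPdh−/− TE. Both comparisons gave an exact permutation p of 0.0286, 0.0571 after adjustment. In TM the genotypes differed by -0.22 (SE 0.098, exact permutation p = 0.0571), with WT TM library 12 the highest at 0.579 and -0.13 without it and library 5.

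**Figure D3:**
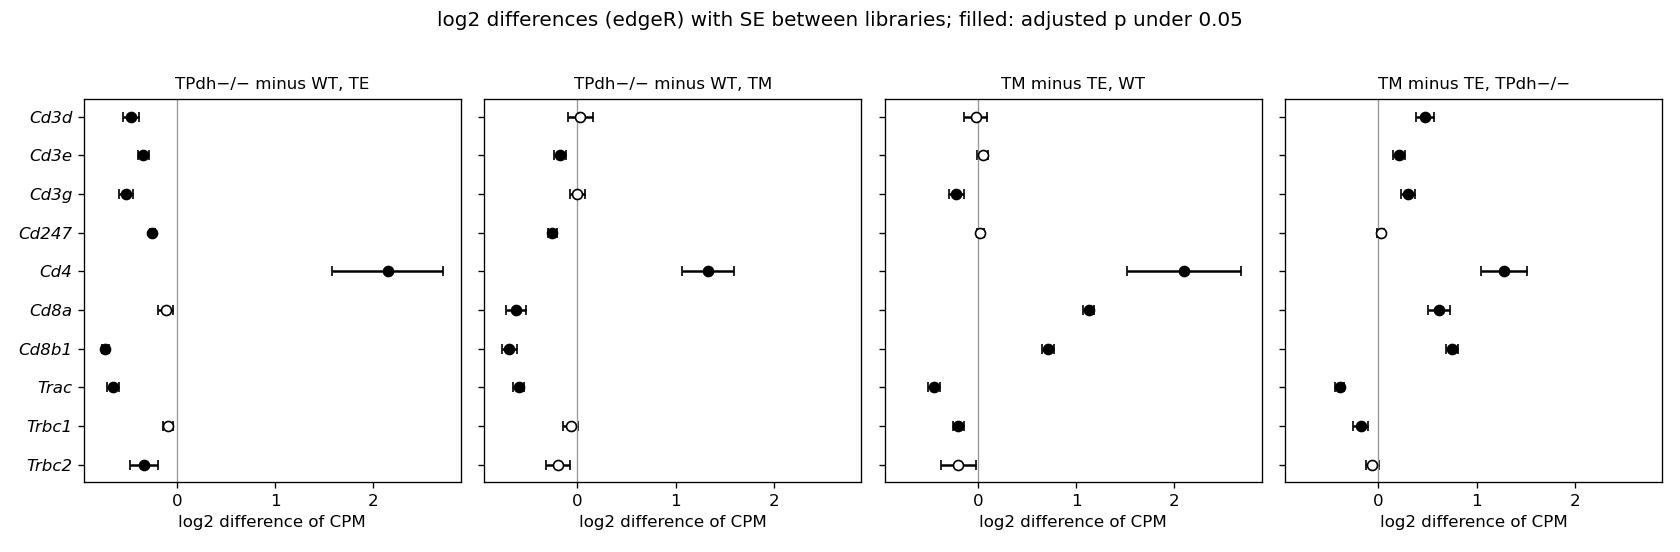
Log2 differences of CPM with their SE for the 10 genes in the 4 comparisons of groups, with filled points for genes with an adjusted p under 0.05 over all genes. Cd3d and Cd3g sit at -0.47 and -0.52 in the TE genotype panel and at 0.03 and -0.0017 in the TM panel, and Cd8a at -0.12 and -0.62.

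Trac, the alpha constant gene, was lower in TPdh−/− cells and lower in TM than in TE. It was 217, 196, 197 and 205 CPM in WT TE and 120.2, 128, 130.0 and 140.2 CPM in TPdh−/− TE. It was 166, 140.0, 144 and 147 CPM in WT TM and 97.3, 96.9, 99.1 and 101 CPM in TPdh−/− TM. The genotypes did not overlap in either culture. The log2 difference was -0.65 (SE 0.057, adjusted p = 3.66e-07) in TE and -0.60 (SE 0.057, adjusted p = 1.61e-06) in TM, with an interaction of 0.05 (SE 0.080, adjusted p = 0.719). Between cultures it was lower in TM by -0.45 in WT and -0.39 in TPdh−/− (SE 0.065 and 0.048), and the WT value was -0.18 with limma on log2(TPM + 1) (adjusted p = 0.0899).

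The beta constant genes moved less. Trbc1 ran from 251 to 268 CPM in WT and 233 to 267 CPM in TPdh−/− TE cells, and in TM cells from 213 to 249.8 and 199.98 to 236 CPM, with genotype differences of -0.09 (SE 0.051, adjusted p = 0.340) and -0.07 (SE 0.080, adjusted p = 0.512). It was lower in TM than in TE by -0.20 in WT and -0.18 in TPdh−/− (adjusted p = 0.0124 and 0.0211). The TPdh−/− call was lost without library 8, 13 or 14 (adjusted p 0.0807 to 0.0885), and the WT value was -0.016 with limma on log2(TPM + 1) (adjusted p = 0.825). Trbc2 was 653, 456, 427 and 467 CPM in WT TE and 387, 379, 385 and 435 CPM in TPdh−/− TE. It was 533, 366, 421 and 424 CPM in WT TM and 359.5, 355, 408 and 399 CPM in TPdh−/− TM. WT libraries 1 and 9 were the high ones, and the genotypes overlapped in both cultures. The difference was -0.34 in TE (SE 0.14, adjusted p = 0.0402) and -0.20 in TM (SE 0.12, adjusted p = 0.279), where it was -0.086 without library 9. Without library 1 the TE value was -0.19 (adjusted p = 0.151), and the call was also lost without library 5, 6 or 7 (adjusted p from 0.0688). Between WT cultures Trbc2 differed by -0.20 (SE 0.18, adjusted p = 0.147), by -0.053 without library 1 and by -0.32 without library 9 (adjusted p = 0.0241).

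Because the copies share reads, Trbc1 and Trbc2 were also summed, a choice made after the data were seen. Their sum differed by -0.25 (adjusted p = 0.0509) between genotypes in TE and by -0.15 (adjusted p = 0.280) in TM, and by -0.15 (adjusted p = 0.130) and -0.082 (adjusted p = 0.502) without libraries 1 and 9. Per length, Trac stood at 0.289 to 0.307 of the summed Trbc genes in WT TE and 0.210 to 0.244 in TPdh−/− TE, and at 0.247 to 0.285 in WT TM and 0.178 to 0.218 in TPdh−/− TM. The log2 ratio was lower in TPdh−/− by -0.37 (SE 0.053) in TE and -0.39 (SE 0.088) in TM, each with an exact permutation p of 0.0286 and 0.0571 after adjustment. The alpha constant gene thus fell relative to the beta genes in both cultures, with no overlap between genotypes. The share of Trbc1 in the Trbc counts was higher in TPdh−/− TE than in WT TE by 3.62 percentage points (SE 1.88). Between TPdh−/− cultures it was lower in TM by -1.99 (SE 0.388). Both comparisons of the share gave an exact permutation p of 0.0286, and 0.0571 after adjustment. Without library 1 the TE value was 1.78, and in TM the genotypes differed by 1.76 (SE 1.92, exact permutation p = 0.457).

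Libraries 1 and 9 stood apart in the segments of the OT-I receptor as well. Trbv12-1, the beta variable segment of this receptor, held 98.9% to 99.8% of all Trbv counts in every library. It was 392 CPM in library 1 against 175 to 185 in the other WT TE libraries, and 498 CPM in library 9 against 212 to 249 in the other WT TM libraries. The alpha segments Trav14d-1 and Trav14n-1, whose values were equal in each of these libraries, were 1.68 and 1.52 times the mean of the other libraries. Trbc2 exceeded that mean by 203 CPM in library 1 and 129.7 CPM in library 9, and Trbv12-1 by 211 and 263 CPM. Trbc1 exceeded it by 10.1 CPM in library 1 and was 4.72 CPM under it in library 9, so Trbc1 took 29.1% and 29.5% of the Trbc counts there and 33.4% to 39.2% in the other 14 libraries. Trac was 1.09 and 1.16 times the mean of the other libraries, Cd3e 0.949 and 1.06 times, and Cd8a 1.07 and 0.985 times. Without both libraries, Cd8b1, Trac and Cd247 kept their genotype calls in both cultures, while Cd3e and Cd4 in TM, Trbc2 in TE and Trbc1 between WT cultures lost theirs.

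**Figure D4:**
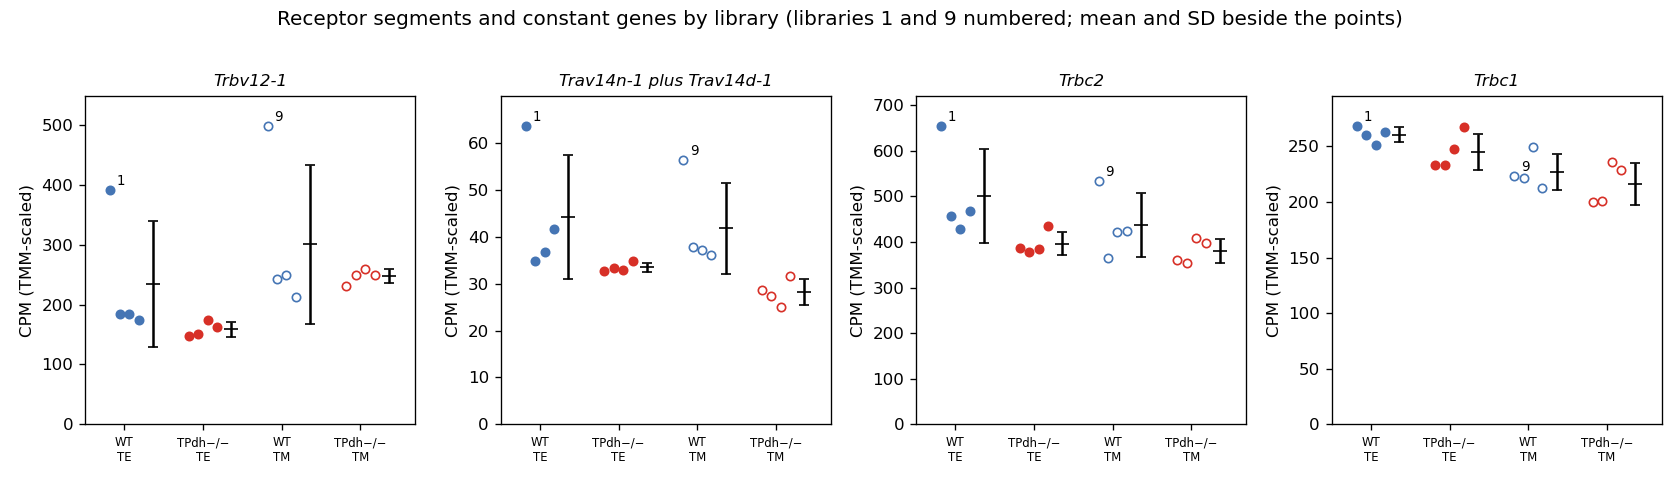
CPM (linear axes from 0) of the OT-I variable segments and of the beta constant genes in every library, with the mean and SD of each group beside the points and libraries 1 and 9 numbered. Both libraries are above their groups in Trbv12-1 (392 and 498 CPM), in the summed Trav14 segments and in Trbc2 (653 and 533 CPM). In Trbc1 library 1 is slightly above the rest of its group (268 against 251 to 263 CPM) and library 9 lies within its group.

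Constant genes of the gamma-delta receptor, the alternative to alpha-beta, moved the other way. Trdc was 101 to 119 CPM in WT TE and 147 to 153 in TPdh−/− TE, and 125 to 157 in WT TM and 241 to 262 in TPdh−/− TM (adjusted p = 2.12e-05 and 1.63e-07). Tcrg-C4 was 7.20 ± 0.837 and 29.4 ± 5.66 CPM (SD, n = 4) in WT and TPdh−/− TE and 1.65 ± 0.529 and 23.1 ± 2.88 CPM in TM (adjusted p = 8.59e-08 and 1.75e-09). Among all tested genes 17.3% rose and 14.3% fell in TE, and 11.0% rose and 7.27% fell in TM. Of 12 gamma-delta genes 11 were in the tables and 10 were tested, of which 8 rose in TPdh−/− TE and 9 in TM and none fell. Their summed TPM was 227 to 341 against 95.3 to 108 in TE and 191 to 255 against 59.4 to 70.7 in TM, TPdh−/− first, beside 354 TPM of Trac alone in TPdh−/− TM. All 9 NK cell genes rose in TPdh−/− TM, where they summed to 485 to 1139 TPM against 30.6 to 109. In TE 7 rose and Gzma fell (log2 difference -1.21, adjusted p = 0.00824), with a lower sum in TPdh−/− (708 to 893 against 1623 to 1818). Gzma, a granzyme that cytotoxic T cells also make, held most of these sums, at 1617 to 1811 TPM in WT TE, 693 to 878 in TPdh−/− TE, 24.9 to 99.4 in WT TM and 415 to 1026 in TPdh−/− TM. Ncr1, an NK receptor, was 7.94 CPM in TPdh−/− TM and 0.578 in WT TM (adjusted p = 5.06e-09). Of 8 B cell genes 1 rose in TM (Ms4a1, adjusted p = 0.0336), near the share of all genes, and none was called in TE. Of 6 tested plasma cell genes 3 rose and 2 fell in TE and 2 rose in TM. The B cell genes summed to 8.12 to 10.24 TPM in TPdh−/− TE and 6.92 to 7.95 in WT TE. In TM their sums overlapped (9.05 to 40.7 in TPdh−/− and 10.54 to 21.44 in WT). The plasma cell genes summed to 88.56 to 120 TPM in TPdh−/− TE and 74.39 to 76.84 in WT TE. In TM they summed to 46.96 to 58.54 in TPdh−/− and 40.4 to 44.4 in WT. The paper counts granzymes and killer-like receptors among the genes most raised in TPdh−/− TM. It interprets that profile as TM cells keeping effector functions, and points to its assays in which TPdh−/− TM cells killed target cells. It calls retained granzyme B activity the likely reason for that killing. Whether gamma-delta, NK, B or plasma cells were present was not tested, nor was their part in the lower Cd8b1, Trac and Cd247 values.

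The kinases and adaptors next to the receptor were lower more often than higher. Of 36 genes of proximal signalling 19 fell and 3 rose in TPdh−/− TE, against 14.3% of all genes lower, and 12 fell and 2 rose in TM, against 7.27% lower, with median log2 differences of -0.17 and -0.099. Trat1, a transmembrane adaptor that associates with the receptor, rose against that direction, from 5.75 to 47.6 CPM in TE (log2 difference 3.05, SE 0.33, adjusted p = 7.37e-08) and from 2.72 to 15.7 CPM in TM (2.53, SE 0.12, adjusted p = 1.51e-06). Among those that fell were Ubash3b (-0.84) and Cblb (-0.53), which restrain receptor signals, in TE, and the phosphatase Ptpn6 (-0.76) and the adaptor Sit1 (-0.51) in TM. Zap70, which docks on the ITAMs shown above, was -0.53 (SE 0.078, adjusted p = 0.000143) in TE and -0.31 (SE 0.11, adjusted p = 0.0180) in TM, and Lck -0.15 (SE 0.030, adjusted p = 0.0226) and -0.21 (SE 0.045, adjusted p = 0.00595), both named for their part in the background and not by rank.

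Of 24 regulators of T cell lineage and of the coreceptor genes 21 were tested, with 7 lower and 2 higher in TPdh−/− TE and 4 lower and 4 higher in TM. Among all tested genes 14.3% were lower and 17.3% higher in TE, and 7.27% lower and 11.0% higher in TM. The smallest adjusted p values of the list in TE were those of Ikzf3 (-0.66), Ikzf1 (-0.32) and Ets1 (-0.39), factors of lymphoid genes. In TM they were those of Id2 (1.14), Id3 (-0.83) and Bcl11b (-0.30). Tox, a factor of CD4 lineage development and T cell exhaustion, had a larger difference in TE than those named there and in the other direction (0.98, adjusted p = 0.000121), and is named after its values were seen. Their medians were -0.068 in TE and -0.074 in TM. Runx3, which silences Cd4 and maintains Cd8 expression in CD8 cells, was 105 to 121 CPM in WT TE and 82.0 to 86.5 in TPdh−/− TE (log2 difference -0.40, SE 0.048, adjusted p = 0.000824). In TM it was 81.2 to 107 and 74.0 to 91.5 CPM (-0.22, SE 0.11, adjusted p = 0.0536), and its interaction was 0.18 (SE 0.12, adjusted p = 0.309). It was named for this role after its values were seen. Runx1 and Cbfb of the same list are also named after their values were seen. Runx1 went the other way, with 0.355 in TE (SE 0.094, adjusted p = 0.0100) and 0.370 in TM (SE 0.11, adjusted p = 0.0133). Cbfb was called in neither culture (adjusted p = 0.833 in TE and 0.455 in TM).

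Of 5 adaptors that carry ITAMs or a related motif for other receptors, 1 was higher in TPdh−/− TE and 2 in TM, and 0 were lower. Among all tested genes 17.3% were higher in TE and 11.0% in TM. Hcst, Cd79a and Cd79b were called in neither culture. Fcer1g and Tyrobp, which serve Fc and NK receptors, were 5.40 and 10.9 CPM in TPdh−/− TM and 0.479 and 0.794 CPM in WT TM (log2 differences 3.48 and 3.78, SE 0.25 and 0.30, adjusted p = 3.69e-08 and 1.75e-08). In TE Tyrobp was 1.51 against 0.650 CPM (adjusted p = 0.00159), and Fcer1g ran from 1.44 to 3.10 CPM against 1.72 to 2.30 (adjusted p = 0.615). Per length they stayed under Cd247, the chain they resemble, by less than CPM would give. In TPdh−/− TM Tyrobp ran from 31.67 to 52.06 TPM, Fcer1g from 13.75 to 20.88 and Cd247 from 217 to 238.

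Across groups the members ranked differently per length. Trbc2 was the highest in all 4 groups, at 1167 to 1348 TPM in the group means, with Cd3g next at 712 to 925, and Cd247 was the lowest but Cd4 at 221 to 277. Cd8a held 314 ± 13.6 TPM (SD, n = 4) in WT TE and 798 ± 50.7 in WT TM, where it passed Cd3d. Ordered by mean CPM, the groups ran from WT TM to TPdh−/− TM, WT TE and TPdh−/− TE for both Cd8 genes. For Cd8b1 TPdh−/− TM and WT TE overlapped, and for Cd8a WT TE and TPdh−/− TE did. Trac ran from WT TE to WT TM, TPdh−/− TE and TPdh−/− TM, and the middle pair overlapped by less than 1 CPM. Neighbours in the order overlapped throughout for Cd3d, Cd3e, Trbc1 and Trbc2.

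The genes whose log2 CPM followed a member most closely over the 16 libraries were Man2b1 (Pearson r = 0.935), Vrk3 (0.933) and Cpt1a (0.928) for Cd3e, Fgf13 (0.975), Stx2 (0.973) and Fry (0.972) for Cd8a, and Mroh2a (0.975), Kif23 (0.953) and Ptms (0.943) for Trac. These were picked as the highest among the tested protein-coding genes, and the libraries share 4 groups, so the points are not independent and no p is given. Fgf13, for example, went from 24.2 CPM in WT TE to 56.4 in WT TM and 41.1 in TPdh−/− TM, and Mroh2a from 32.4 in WT TE to 22.2 in TPdh−/− TE and 17.5 in TPdh−/− TM.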

How the data were processed

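Poly(A) RNA of 16 libraries was sequenced as 150-base read pairs with a kit that keeps no strand. Per the labels the authors used STAR 2.7.6a for alignment (build mm10, GRCm38) and RSEM 1.3.3 for quantification, and DESeq2 was named with no version; the annotation was not given in the sources used here. The deposited values were the authors' expected counts, which need not be whole, TPM (scaled for length and total) and FPKM (fragments scaled for length and depth).

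Expected counts were rounded, filtered with filterByExpr (minimum count 10, total 15) and fitted in edgeR 4.0.16 (R 4.3.3) with TMM factors and 1 mean per group over all 16 libraries. The genotype effect in each culture, the culture effect in each genotype and their interaction were tested, and the steps were tested on simulated data. DESeq2 1.42.0 and limma 3.58.1 on log2(TPM + 1) and log2(TPM + 0.1) were alternatives, and ratios were also formed from CPM, FPKM and TPM + 1. Ratios used two-sided exact permutation tests (Python 3.11.15). Gene names were from GENCODE M21 (99.5% of genes matched). Counting limits cover counting error only.

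The members and lists were chosen with earlier results of these data known. All 10 members were named in each comparison, and of each other list up to 3 genes with the smallest adjusted p in the genotype comparisons. The 3 protein-coding genes with the highest Pearson correlation to each of Cd3e, Cd8a and Trac were also named, and genes chosen after their values were seen are said to be so. A gene that this rule would name is not reported here.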

Additional observations from a re-analysis of the deposited data

Results flagged for a closer look

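The genotype effect differed between the cultures, by the interaction test, for Cd3d (TM minus TE 0.50 on the log2 scale), Cd3g (0.52) and Cd8a (-0.51).

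A library lay farther from its group than the usual limit for 4 values in 4 of the 59 groups of values examined, where chance gives about 1 in 20. Cd247 was 329 CPM in WT TM library 12. Trbc2 was 435 CPM in TPdh−/− TE library 8, and the log2 ratio of Cd4 to Cd8a was -9.82 in the same library. Trbc1 took 29.1% of the Trbc counts in WT TE library 1.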

How the results depend on the processing

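The other settings were RLE size factors, no filter, only the groups compared, DESeq2, limma on TPM, and leaving out each library or libraries 5 and 12; leaving out 1 and 9 and summing Trbc1 with Trbc2 were chosen after seeing the data. Of 870 log2 differences of a member, 773 kept direction and side of the threshold, 40 lost and 5 gained a call, and 52 changed sign, of which 0 had been called (edgeR, adjusted p under 0.05) and 0 were called under the alternative. Of 87 counts of members called, 85 stayed within 1.5 times. Left-out libraries gave 4 to 6 members called in TM and 7 to 8 in TE.

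Differences that changed sign with libraries left out ranged, for genotype in TM, from -0.073 to 0.079 (Cd3d) and -0.055 to 0.045 (Cd3g), between WT cultures from -0.080 to 0.075 (Cd3d) and -0.010 to 0.043 (Cd247), and in the interaction from -0.019 to 0.040 (Cd247), -0.038 to 0.083 (Cd8b1), -0.036 to 0.080 (Trbc1) and -0.0014 to 0.26 (Trbc2). Cd3g in TM was 0.0015 with only the groups compared, and the interaction of Cd247 0.0030 with no filter and 0.00084 with DESeq2.

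With limma on log2(TPM + 1) or log2(TPM + 0.1), 5 members were called for genotype in TE. Signs changed for Cd8a (0.014) and Trbc1 (0.065) in TE, Cd3d between WT cultures (0.14), and the interactions of Cd3e (-0.017), Cd8b1 (-0.13), Trac (-0.074), Trbc1 (-0.14) and Trbc2 (-0.0063). With TPM + 1 the median of all genes moved to 0.092 in TE, 0.12 between WT cultures and -0.12 in the interaction. Relative to it, Cd8a (-0.079) and Trbc1 (-0.027) in TE and the interactions of Cd3e (0.11), Trac (0.049) and Trbc2 (0.12) had the sign of the edgeR value again, while Cd3d between WT cultures (0.025) and the interactions of Cd8b1 (-0.0087) and Trbc1 (-0.015) did not.

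Ratios from TPM + 1 gave an adjusted p of 0.044 for Cd8b1 to Cd8a (TE -0.60, WT cultures -0.45), Cd247 to CD3 (TE 0.18, TPdh−/− cultures -0.29) and Trac to Trbc (TM -0.39, TE -0.37, WT cultures -0.16). Their exact p was already the smallest possible, so this came from the adjustment, shared with Cd4 to Cd8a (TM 0.90, TE 0.27, TPdh−/− cultures -0.53). Those values say little of Cd4: at most 0.50 TPM, it is outweighed by a pseudocount of 1. Between WT cultures Cd4 then differed by 0.18 and Cd8a by 1.34, which gives the changed sign of their ratio (-1.16). With CPM, which takes no account of length, that ratio was 0.67 between TPdh−/− cultures. The effective length of Cd4 was 966 to 1683 bases in TPdh−/− TE and 1450 to 2800 in TPdh−/− TM. That of Cd8a was 2501 to 2514 and 2439 to 2459. The share of Trbc1 from TPM differed by 0.025 percentage points between WT cultures, and the cause was not tested. Cd4, at 0 to 48 counts, is the member that depth limits most. No paired analysis was possible because the groups share no replicate numbers.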
